A study of Rattus norvegicus with 36 samples.

Results

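Kdr, Flt1, Pdgfrb, Fgfr1 and Vegfa encode 4 receptor tyrosine kinases that nintedanib or sorafenib is known to bind and 1 of the VEGF ligands, and their RNA was followed in rat precision-cut lung slices, sections of living lung thin enough to be cultured. The rule that picks these 5 genes is a list of gene IDs and uses no measured value; it was applied to the 32883 IDs of the count table, and all 5 were among the 15644 genes tested after low counts were removed. Their IDs are ENSRNOG00000046829 (Kdr), ENSRNOG00000000940 (Flt1), ENSRNOG00000018461 (Pdgfrb), ENSRNOG00000016050 (Fgfr1) and ENSRNOG00000019598 (Vegfa). The count table carries IDs only, the symbols came with the list of the 5 IDs, and no table used here pairs those IDs with symbols. The 36 libraries fall into 6 groups of 6: slices with TGFb and Pirf, with TGFb and Nint, with TGFb and Sora, with TGFb alone, and untreated slices, all labelled 72, and untreated slices labelled 0. The labels give no unit for these times, no doses, and no strain, age or sex, and the first 4 groups share the TGFb treatment. Pirf is read here as pirfenidone, Nint as nintedanib and Sora as sorafenib, since the study's stated purpose was to characterize the slices as a model for testing anti-fibrotic drugs. The labels do not state whether libraries of a group stem from different animals, and the p-values therefore cover the spread among libraries alone, which may be technical.

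As background, Vegfa is a secreted growth factor that lung epithelium makes in large amounts and that keeps the neighbouring capillary endothelium alive. It binds a pair of endothelial receptors: Kdr, also called VEGFR2, carries most of the growth signal, whereas Flt1, also called VEGFR1, binds Vegfa tightly but signals weakly and also exists in a soluble form that acts as a decoy. Pdgfrb is the PDGF receptor of pericytes and fibroblasts, and Fgfr1 is an FGF receptor of many mesenchymal cells. Nintedanib blocks the kinase activity of VEGF, PDGF and FGF receptors, sorafenib that of RAF kinases, VEGF receptors and Pdgfrb, and pirfenidone is an anti-fibrotic drug not designed against these receptors. Both inhibitors act on the kinase proteins, and RNA levels do not measure kinase activity.

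Library totals lay between 15886958 and 23255558 counts at time 0 and between 18971560 and 32933012 counts at 72, and the smallest count of any of the 5 genes in any library was 1132, so counting error was small beside the spread between libraries. Levels are given as CPM, counts scaled to a common library total, after TMM scaling (trimmed mean of M values), which sets each library's total by the bulk of its genes. The TMM factors averaged 1.07 ± 0.00884 with Pirf, 0.967 ± 0.0275 with Nint, 1.03 ± 0.0433 with Sora, 0.964 ± 0.0509 with TGFb alone, 1.01 ± 0.0478 in untreated slices at 72 and 0.962 ± 0.0387 at 0 (SD, n = 6). No gene lengths were used, so CPM values are compared between groups and not between genes. The slices are bulk tissue, in which fewer cells of a type and less RNA per cell cannot be told apart, and cell type markers fixed by symbol could not be looked up, since the reference table named 0 of the tested IDs. Adjusted p-values come from edgeR's quasi-likelihood test with Benjamini-Hochberg adjustment over all genes tested, the threshold for a call was 0.05, and intervals are 95% confidence intervals of the log2 fold change.

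The promoters of Kdr, Flt1 and Vegfa, the ligand and its receptors, are shown because these 3 genes moved in different combinations with the drugs, and because these are the 3 of the 5 genes for which the reference table used here gave a window. The windows come from RefSeq with the build GRCr8, run from 250 bases before to 50 bases after a start site, and lie on the plus strand at chr14:32571813-32572112, chr12:12333180-12333479 and chr9:22452604-22452903. The start site of the Kdr window lies 32 bases, and that of the Flt1 window 380 bases, downstream of the first base of the annotated gene, and of the 2 Vegfa windows the one at the first base of the gene is shown. Distances below are from each window's own start site. The build of the counts was Rnor_6.0, so these positions belong to the sequences alone. Capitals mark matches, on either strand, to the GC box (GGGCGG), the cAMP response element (TGACGTCA), the TATA box (TATAAA) or the CCAAT box. ACGTG, a form of the core of the hypoxia response element, was searched in the same way, and no other form of that core was.
Kdr: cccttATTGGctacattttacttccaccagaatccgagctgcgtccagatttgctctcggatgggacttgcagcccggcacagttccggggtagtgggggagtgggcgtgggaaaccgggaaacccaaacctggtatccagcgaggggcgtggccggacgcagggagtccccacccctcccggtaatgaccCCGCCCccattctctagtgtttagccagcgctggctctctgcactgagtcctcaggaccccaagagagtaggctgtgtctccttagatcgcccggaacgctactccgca
Flt1: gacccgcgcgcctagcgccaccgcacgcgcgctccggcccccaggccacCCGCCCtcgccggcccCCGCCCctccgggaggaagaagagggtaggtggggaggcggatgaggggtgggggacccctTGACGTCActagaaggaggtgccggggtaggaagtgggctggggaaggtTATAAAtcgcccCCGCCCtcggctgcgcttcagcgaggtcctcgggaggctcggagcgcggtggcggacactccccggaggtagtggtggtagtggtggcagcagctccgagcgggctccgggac
Vegfa: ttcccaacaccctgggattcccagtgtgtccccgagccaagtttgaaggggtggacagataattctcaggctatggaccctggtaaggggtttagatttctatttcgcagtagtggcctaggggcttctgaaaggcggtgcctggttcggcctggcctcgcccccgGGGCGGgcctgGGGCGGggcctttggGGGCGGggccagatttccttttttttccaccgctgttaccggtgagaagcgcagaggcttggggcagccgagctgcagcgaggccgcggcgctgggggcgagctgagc
The Kdr window held 1 GC box, 59 bases before the start site, and 1 CCAAT box, at 245 bases. The Flt1 window held 3 GC boxes, a TATA box 75 bases before the start site and a cAMP response element at 124 bases, a motif absent from the Kdr and Vegfa windows. The Vegfa window held 3 GC boxes, the nearest 58 bases before the start site. An ACGTG core was found in none of the 3 windows. Of the 33469 rat promoter windows of this length, 33.1% held a GC box, 1.83% a cAMP response element, 14.2% a TATA box, 37.5% a CCAAT box and 19.3% an ACGTG core. A match of letters is a description and not a bound site, and no factor binding was measured.

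Kdr fell more than any of the other 4 genes in culture, and at 72 it was raised by pirfenidone and lowered by nintedanib. Its lowest, median and highest levels were 176, 196 and 222 CPM with Pirf, 48.4, 61.7 and 70.4 CPM with Nint, and 76, 86.2 and 124 CPM with Sora. With TGFb alone they were 82.8, 106.6 and 149 CPM, in untreated slices at 72 they were 140.5, 163 and 170.3 CPM, and in untreated slices at 0 they were 455, 614 and 827 CPM. Every library at 0 thus lay above every library at 72, every Pirf library above every library with TGFb alone, and every Nint library below them, whereas Sora and TGFb alone overlapped. Kdr averaged 160 ± 10.3 CPM in untreated slices at 72 and 614 ± 138 CPM at 0 (SD, n = 6), with a log2 fold change of -1.94 (adjusted p = 1.06e-13, SE 0.15). With TGFb alone it averaged 114 ± 30.1 CPM, a log2 fold change of -0.49 against untreated slices at 72 (adjusted p = 0.00969, SE 0.14). The libraries with TGFb alone were spread widely, replicates 2 and 3 at 149 and 147 CPM inside the untreated range and replicates 1, 4, 5 and 6 below it, at 82.8, 89.3, 122 and 91.2 CPM. This call was lost against a fold of 1.2 (adjusted p = 0.124). Pirf brought Kdr to 196 ± 16.5 CPM, a log2 fold change of 0.79 against TGFb alone (adjusted p = 3.04e-05, SE 0.14). With the TMM factor of each library as a covariate this fold change was 0.49 (adjusted p = 0.022). The Pirf factors (1.059 to 1.083) overlapped neither those with TGFb alone (0.894 to 1.02) nor those with Nint (0.9349 to 0.9988). For every gene, covariate estimates between Pirf and either of these groups are therefore extrapolated. Nint took Kdr to 60.2 ± 9.29 CPM, 52.9% of the mean with TGFb alone and 9.81% of the mean at time 0, with a log2 fold change of -0.92 against TGFb alone (adjusted p = 0.000187, SE 0.14). The Sora mean was 92.5 ± 17.1 CPM, a log2 fold change of -0.30 with an interval of -0.59 to -0.01 and an adjusted p of 0.153. With the same covariate the Sora difference passed, at -0.49 (adjusted p = 0.0265).

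Set against untreated slices at 72, which share no library with the TGFb-alone group, Kdr was lower with Nint (log2 fold change -1.41, adjusted p = 6.41e-09) and with Sora (-0.79, adjusted p = 0.000145). With Pirf all 6 libraries lay above the 6 untreated ones, and the difference of 0.30 had an interval of 0.01 to 0.59 and missed the threshold (adjusted p = 0.0755). It passed without scaling factors (0.38, adjusted p = 0.0428) and in a fit of these 12 libraries alone (adjusted p = 0.00119). By mean level the groups ran from time 0 at the top through Pirf, untreated 72, TGFb alone and Sora to Nint. Neighbours in that order passed the threshold except Pirf and untreated 72, and TGFb alone and Sora.

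**Figure D1:**
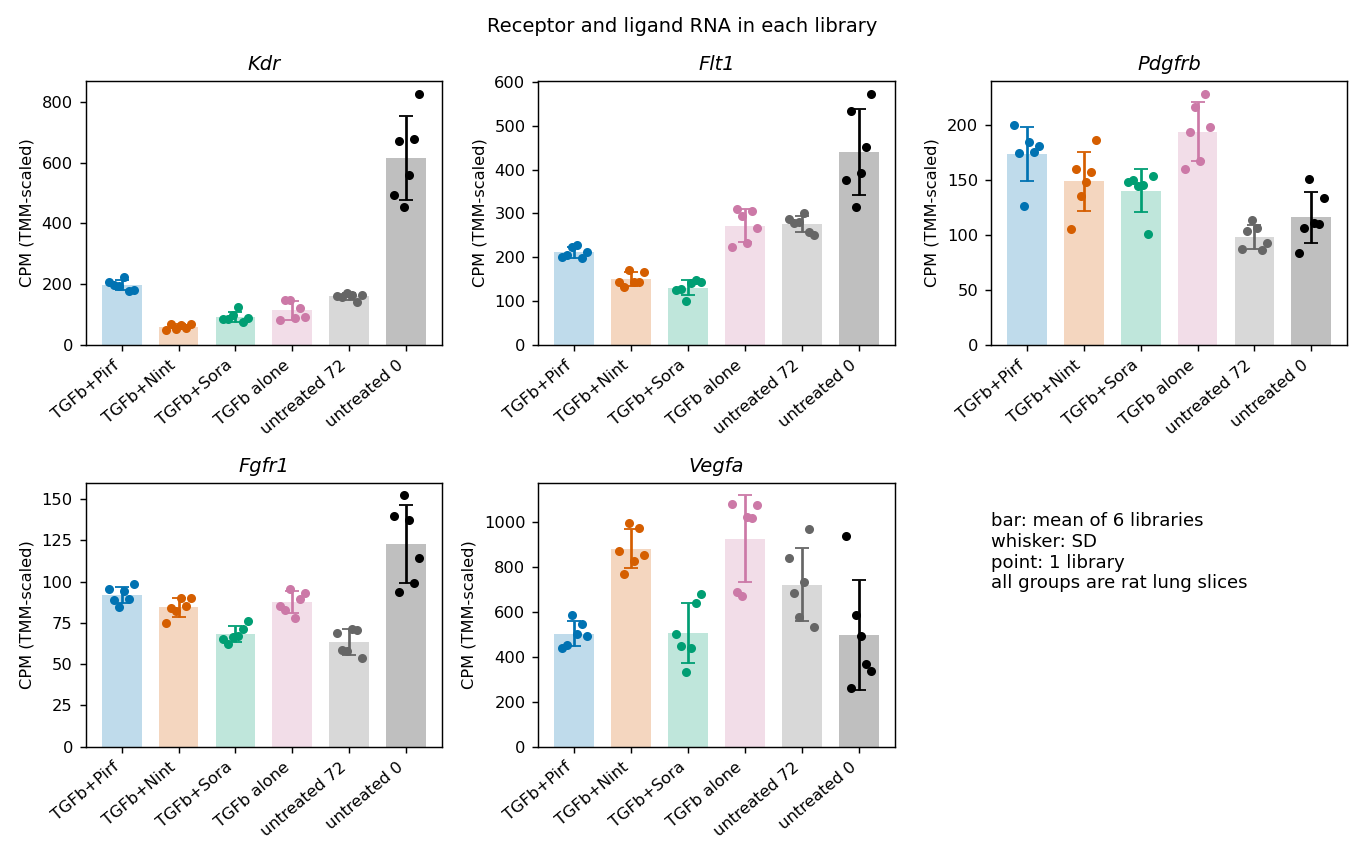
CPM (vertical axis, from 0) of the 5 genes in each of the 36 libraries, with groups along the horizontal axis; bars are means, whiskers SD and points single libraries. For Kdr the Nint libraries sit between 48.4 and 70.4 CPM and the Pirf libraries between 176 and 222 CPM; for Flt1 the Nint and Sora libraries lie below all those with TGFb alone.

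Flt1, the tight-binding VEGF receptor, was lower with all 3 drugs, most with Sora and Nint, and showed no difference with TGFb that the test could resolve. Its lowest, median and highest levels were 198, 208 and 228 CPM with Pirf, 132, 144 and 172 CPM with Nint, and 99.7, 134 and 148 CPM with Sora. They were 224, 281 and 311 CPM with TGFb alone, 252, 279 and 301 CPM in untreated slices at 72, and 315, 422 and 574 CPM at 0. No Nint or Sora library reached the lowest library with TGFb alone, and 4 of the 6 Pirf libraries lay below it. In culture Flt1 fell to 276 ± 18.7 CPM at 72, against 440.1 ± 98.8 CPM at 0 (SD, n = 6, log2 fold change -0.67, adjusted p = 1.83e-06, SE 0.11), 62.7% of the time-0 mean where Kdr kept 26%. With TGFb alone it averaged 272 ± 37.7 CPM, a log2 fold change of -0.02 against untreated slices at 72 (interval -0.24 to 0.20, adjusted p = 0.926). This difference was above 0 without untreated replicate 4 (0.01) and without TGFb-alone replicate 1 (0.03) or 4 (0.02). Sora took Flt1 to 130.5 ± 17.6 CPM, 47.9% of the mean with TGFb alone (log2 fold change -1.06, adjusted p = 8.21e-08, SE 0.11). Nint took it to 150.3 ± 15.6 CPM, 55.2% of that mean (log2 fold change -0.86, adjusted p = 8.43e-06, SE 0.11). The Pirf libraries averaged 211 ± 12.5 CPM (log2 fold change -0.37, adjusted p = 0.00582, SE 0.11), so that pirfenidone moved Kdr and Flt1 in opposite directions. The Pirf call was lost without scaling factors (-0.22, adjusted p = 0.0908), with the TMM factor as a covariate (-0.34, adjusted p = 0.0653) and against a fold of 1.2 (adjusted p = 0.172).

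Against untreated slices at 72, Flt1 was lower with Pirf (log2 fold change -0.39, adjusted p = 0.0037), Nint (-0.88, adjusted p = 2.61e-07) and Sora (-1.08, adjusted p = 1.28e-08). Against a fold of 1.2 this Pirf call was lost (adjusted p = 0.131). The order of means was time 0, untreated 72, TGFb alone, Pirf, Nint and Sora. Untreated 72 and TGFb alone missed the threshold, as did Nint and Sora (Sora minus Nint -0.20, interval -0.43 to 0.02, adjusted p = 0.22), and the other neighbours passed it. RSEM counts per gene join the full-length and soluble forms of Flt1, which cannot be told apart here.

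**Figure D2:**
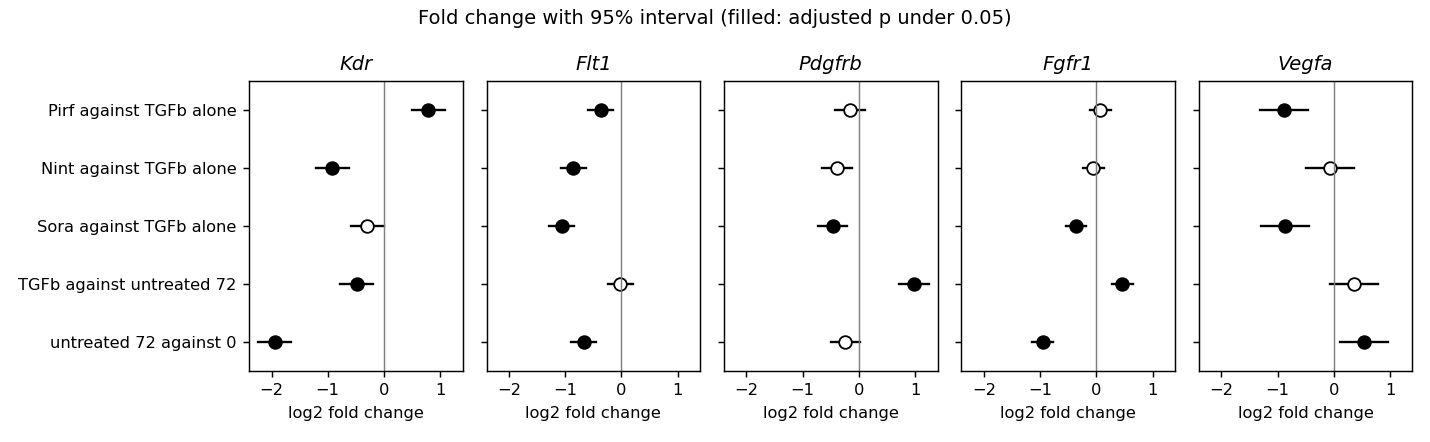
Log2 fold changes (horizontal axis) of the 5 genes in 5 comparisons (rows), with 95% intervals as lines and filled points where the adjusted p was under 0.05. Kdr lies at 0.79 with Pirf and -0.92 with Nint; Flt1 lies left of 0 with every drug; Pdgfrb and Fgfr1 lie right of 0 with TGFb.

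Pdgfrb, the PDGF receptor of pericytes and fibroblasts, rose with TGFb and was lower with Sora than with TGFb alone. Its lowest, median and highest levels were 127, 178 and 200.2 CPM with Pirf, 105.6, 153 and 187 CPM with Nint, and 100.6, 147 and 154 CPM with Sora. They were 160.2, 196 and 229 CPM with TGFb alone, 86.1, 98.3 and 114 CPM in untreated slices at 72, and 83.6, 110.5 and 151 CPM at 0. All libraries with TGFb alone lay above all untreated ones, and 5 of the 6 Sora libraries fell in a narrow band from 145 to 154 CPM below them, with replicate 5 lower still. TGFb alone gave 194 ± 26.8 CPM, against 98.3 ± 11.3 CPM in untreated slices at 72 (SD, n = 6, log2 fold change 0.98, adjusted p = 7.4e-07, SE 0.13). Sora gave 140.4 ± 19.8 CPM, 72.3% of the mean with TGFb alone (log2 fold change -0.47, adjusted p = 0.0136, SE 0.13). Its call was lost without scaling factors (-0.37, adjusted p = 0.0822) and against a fold of 1.2 (adjusted p = 0.246). Without Sora replicate 5 the Sora difference was -0.39 (adjusted p = 0.03), and with the TMM factor as a covariate it was -0.73 (adjusted p = 9.78e-05). Nint gave 149 ± 27.1 CPM with 5 of its 6 libraries below every library with TGFb alone, and its log2 fold change of -0.38 had an interval of -0.65 to -0.12 and missed the threshold (adjusted p = 0.112). That difference passed without Nint replicate 6 (-0.46, adjusted p = 0.0459) and with the TMM factor as a covariate (-0.40, adjusted p = 0.0173). The Pirf mean was 174 ± 24.8 CPM (log2 fold change -0.16, interval -0.43 to 0.10, adjusted p = 0.309). With the TMM factor as a covariate the Pirf difference was -0.56 (adjusted p = 0.00184), an extrapolated value, since the factors of these groups did not overlap.

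Culture without treatment left Pdgfrb at 98.3 CPM at 72, against 116 ± 23.4 CPM at 0, a difference of -0.24 on the log2 scale that missed the threshold (interval -0.50 to 0.03, adjusted p = 0.0995). It passed without time-0 replicate 1 (-0.32, adjusted p = 0.0285) and with the TMM factor as a covariate (-0.42, adjusted p = 0.00125). Pdgfrb stayed above untreated slices at 72 with TGFb and Pirf (log2 fold change 0.82, adjusted p = 4.24e-06), Nint (0.60, adjusted p = 0.000737) and Sora (0.51, adjusted p = 0.00435), although the Sora call was lost against a fold of 1.2 (adjusted p = 0.0907). The order of means was TGFb alone, Pirf, Nint, Sora, time 0 and untreated 72, and no pair of neighbours in it passed the threshold. Sora and time 0 came near it, with a difference of 0.275 (interval 0.01 to 0.54, adjusted p = 0.0551).

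Fgfr1, the FGF receptor, fell in culture, rose with TGFb and was lowered by Sora but not detectably by Nint. Its lowest, median and highest levels were 84.9, 92 and 98.5 CPM with Pirf, 74.8, 84.6 and 90.4 CPM with Nint, and 62.4, 66.8 and 76.1 CPM with Sora. They were 78, 87.4 and 95.8 CPM with TGFb alone, 53.5, 63.7 and 71.5 CPM in untreated slices at 72, and 93.8, 126 and 152 CPM at 0. The Sora libraries lay below every library with TGFb alone and largely among the untreated ones at 72, whereas the Nint and Pirf libraries mixed with those of TGFb alone. In untreated slices Fgfr1 averaged 63.6 ± 7.7 CPM at 72 and 123 ± 23.9 CPM at 0 (SD, n = 6, log2 fold change -0.95, adjusted p = 2.75e-11, SE 0.09). TGFb alone gave 87.5 ± 6.7 CPM (log2 fold change 0.46 against untreated slices at 72, adjusted p = 0.000191, SE 0.09). Sora gave 68.1 ± 4.9 CPM (log2 fold change -0.36 against TGFb alone, adjusted p = 0.00638, SE 0.09), a call that was lost against a fold of 1.2 (adjusted p = 0.429). Nint gave 84.4 ± 5.76 CPM, with a difference of -0.05 on the log2 scale (interval -0.23 to 0.13, adjusted p = 0.919). Pirf gave 91.9 ± 5.04 CPM, with a difference of 0.07 (interval -0.11 to 0.25, adjusted p = 0.525) that reached 0.22 and passed without scaling factors (adjusted p = 0.0453).

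Relative to untreated slices at 72, Fgfr1 was higher with Pirf (log2 fold change 0.53, adjusted p = 9.87e-06) and Nint (0.41, adjusted p = 0.000785), the Nint call being lost against a fold of 1.2 (adjusted p = 0.114). With Sora the difference was 0.10 (interval -0.08 to 0.28, adjusted p = 0.442). The order of means was time 0, Pirf, TGFb alone, Nint, Sora and untreated 72. Time 0 and Pirf, and Nint and Sora, passed the threshold, and the other neighbours did not.

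Vegfa, the ligand, was lower with pirfenidone and with sorafenib than with TGFb alone, and not detectably with nintedanib. Its lowest, median and highest levels were 438, 495 and 584 CPM with Pirf, 768, 860 and 995 CPM with Nint, and 330.3, 473 and 680 CPM with Sora. They were 669.8, 1020 and 1077 CPM with TGFb alone, 532, 706 and 966 CPM in untreated slices at 72, and 262, 430 and 935 CPM at 0. All Pirf libraries and 5 of the 6 Sora libraries lay below every library with TGFb alone, all Nint libraries lay above the lowest of these, and time 0 was the most scattered group, its replicate 1 at 935 CPM and the others at 587 CPM or less. Pirf gave 502 ± 55.1 CPM and TGFb alone 925 ± 192 CPM (SD, n = 6, log2 fold change -0.88, adjusted p = 0.00079, SE 0.21). Sora gave 506 ± 132 CPM (log2 fold change -0.87, adjusted p = 0.00537, SE 0.21). Nint gave 880.5 ± 87.8 CPM, a difference of -0.07 from TGFb alone (interval -0.50 to 0.35, adjusted p = 0.958). With the TMM factor as a covariate the Pirf and Sora differences were -0.29 and -0.50 and neither passed (adjusted p = 0.326 and 0.115). That factor was higher in all 6 Pirf libraries (1.059 to 1.083) than in any with TGFb alone (0.894 to 1.02), and its part in the result was not tested.

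In untreated slices Vegfa averaged 720.5 ± 163 CPM at 72 and 496 ± 245 CPM at 0 (log2 fold change 0.54, adjusted p = 0.0221, SE 0.21). This call lay near the threshold and was lost in 4 of the 12 fits that each left out 1 library. The libraries were time-0 replicates 2, 5 and 6 (0.41, 0.47 and 0.45, adjusted p = 0.0711, 0.0579 and 0.0638) and untreated-72 replicate 5 (0.44, adjusted p = 0.0682). Without time-0 replicate 1 the difference was 0.82 (adjusted p = 0.000206), and it missed the threshold in a fit of these 12 libraries alone (adjusted p = 0.101) and against a fold of 1.2 (adjusted p = 0.0636). TGFb alone differed from untreated slices at 72 by 0.36, with 4 of 6 libraries above the highest untreated one (interval -0.07 to 0.79, adjusted p = 0.216). Against untreated slices at 72, Vegfa with Pirf was lower by a log2 fold change of -0.52 (adjusted p = 0.0365). The Pirf call was lost without Pirf replicate 1, 2, 4 or 6 or untreated-72 replicate 1, 4 or 5 (-0.42 to -0.52, adjusted p = 0.0541 to 0.107). It was also lost without scaling factors (-0.43, adjusted p = 0.0618), with the TMM factor as a covariate (-0.18, adjusted p = 0.458) and against a fold of 1.2 (adjusted p = 0.129). The Sora difference from untreated slices was -0.51 (interval -0.94 to -0.08, adjusted p = 0.0711) and passed with DESeq2 (-0.52, adjusted p = 0.0455). It also passed without untreated-72 replicate 6 (-0.58, adjusted p = 0.0453) or Sora replicate 5 or 6 (-0.59 and -0.61, adjusted p = 0.0432 and 0.0356). For Nint the difference was 0.29 (interval -0.14 to 0.72, adjusted p = 0.338). The order of means was TGFb alone, Nint, untreated 72, Sora, Pirf and time 0. No pair of neighbours passed the threshold, although the interval for untreated 72 and Sora, given above, did not include 0.

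Counted by comparison, Nint against TGFb alone lowered 2 of the 5 genes, the VEGF receptors Kdr and Flt1, and raised none, where 2.21% of all tested genes were called lower and 0.882% higher. The fall of Kdr was matched or exceeded in size by 2.27% of all tested genes and that of Flt1 by 2.82%. Sora lowered 4 of the 5 (Flt1, Pdgfrb, Fgfr1 and Vegfa), where 8.37% of genes were called lower and 7.01% higher. The fall of Flt1 with Sora was matched in size by 2.65% of genes, that of Vegfa by 4.81%, and those of Pdgfrb and Fgfr1 by 16.1% and 22.6%. Pirf raised 1 and lowered 2, where 25.1% of genes were called higher and 26.4% lower, so changes of this kind were common with Pirf. TGFb raised 2 and lowered 1, where 14% of genes were called higher and 12.4% lower, and the rise of Pdgfrb was matched in size by 9.1% of genes. Culture lowered 3 and raised 1, where 35.3% were called lower and 38% higher, and the fall of Kdr was matched in size by 9.22% of genes. The 5 genes had median log2 fold changes of -0.16 with Pirf, -0.38 with Nint, -0.47 with Sora, 0.36 with TGFb and -0.67 in culture. The same medians over all tested genes were 0, -0.02, 0, 0.02 and 0.02. The drug comparisons and the TGFb comparison share the libraries with TGFb alone. Against untreated slices at 72, Pirf differed in 4 of the 5 genes, where 52% of all tested genes were called in either direction, Nint in 4, where 26.4% were, and Sora in 3, where 25% were.

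The drugs were also compared with each other, although no doses are stated in the labels. Kdr separated all 3: it was lower with Nint than with Pirf (log2 fold change -1.71, adjusted p = 5.08e-11, SE 0.15), lower with Sora than with Pirf (-1.09, adjusted p = 3.63e-07), and higher with Sora than with Nint (0.62, adjusted p = 0.00585). Between Sora and Nint all 6 Sora libraries lay above all 6 Nint libraries, but the call was lost with the TMM factor as a covariate (0.42, adjusted p = 0.121) and against a fold of 1.2 (adjusted p = 0.108). Flt1 was lower with Nint (-0.49, adjusted p = 0.00037) and with Sora (-0.69, adjusted p = 6.94e-06) than with Pirf. Vegfa was higher with Nint than with Pirf (0.81, adjusted p = 0.00157) and lower with Sora than with Nint (-0.80, adjusted p = 0.0142), with no overlap of the libraries in either pair. With the TMM factor as a covariate both Vegfa calls were lost (0.26, adjusted p = 0.373, and -0.47, adjusted p = 0.221), and against a fold of 1.2 the second was (adjusted p = 0.113). Vegfa with Sora and with Pirf differed by 0.01 (interval -0.41 to 0.44, adjusted p = 0.968).

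Fgfr1 and Pdgfrb were compared between the drugs in the same way. Fgfr1 was lower with Sora than with Pirf (-0.43, adjusted p = 0.000239) and than with Nint (-0.31, adjusted p = 0.0249). The second call was lost without Nint replicate 4 (-0.29, adjusted p = 0.0551) or Sora replicate 2 or 4 (-0.29 and -0.31, adjusted p = 0.0553 and 0.0515). It was also lost without scaling factors (-0.22, adjusted p = 0.102) and with the TMM factor as a covariate (-0.30, adjusted p = 0.11), and against a fold of 1.2 both were (adjusted p = 0.0533 and 0.762). For Pdgfrb no pair of drugs passed: the differences were -0.22 for Nint and Pirf, -0.31 for Sora and Pirf and -0.08 for Sora and Nint (adjusted p = 0.145, 0.0555 and 0.714). The Sora and Pirf difference passed with the replicate number as a block (-0.32, adjusted p = 0.0472), when only these 12 libraries were fitted (adjusted p = 0.0466), with DESeq2 (-0.31, adjusted p = 0.041) and without Pirf replicate 3 (-0.38, adjusted p = 0.0184). The Nint and Pirf difference passed without scaling factors (-0.37, adjusted p = 0.0371) and changed sign with the TMM factor as a covariate (0.16, adjusted p = 0.377). The Sora and Nint difference changed sign without scaling factors (0.013). Of all tested genes, 54.6% were called between Nint and Pirf, 42.1% between Sora and Pirf and 11% between Sora and Nint.

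A ratio of 2 genes within a library does not depend on how the library is scaled, and is given here as a description. The ratio of Flt1 to Kdr counts had geometric means of 1.08 with Pirf, 2.51 with Nint, 1.42 with Sora, 2.45 with TGFb alone, 1.73 in untreated slices at 72 and 0.717 at 0. The Pirf libraries (0.971 to 1.16) lay below every untreated library at 72 (1.53 to 1.84) and every library with TGFb alone (2 to 2.93), and the Nint libraries (1.95 to 3.35) covered the range with TGFb alone. With Nint both receptors were thus lower, with a geometric mean ratio inside the range seen with TGFb alone, whereas with Pirf the ratio lay between those of untreated slices at 72 and at 0. The ratio of the ligand to its main signalling receptor, Vegfa to Kdr, had geometric means of 2.55 with Pirf, 14.7 with Nint, 5.38 with Sora, 8.21 with TGFb alone, 4.43 in untreated slices at 72 and 0.755 at 0. All Nint libraries (11.3 to 19.4) lay above all Pirf libraries (2.13 to 3.09) and all Sora libraries (3.37 to 8.42), and overlapped those with TGFb alone (4.54 to 13).

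**Figure D3:**
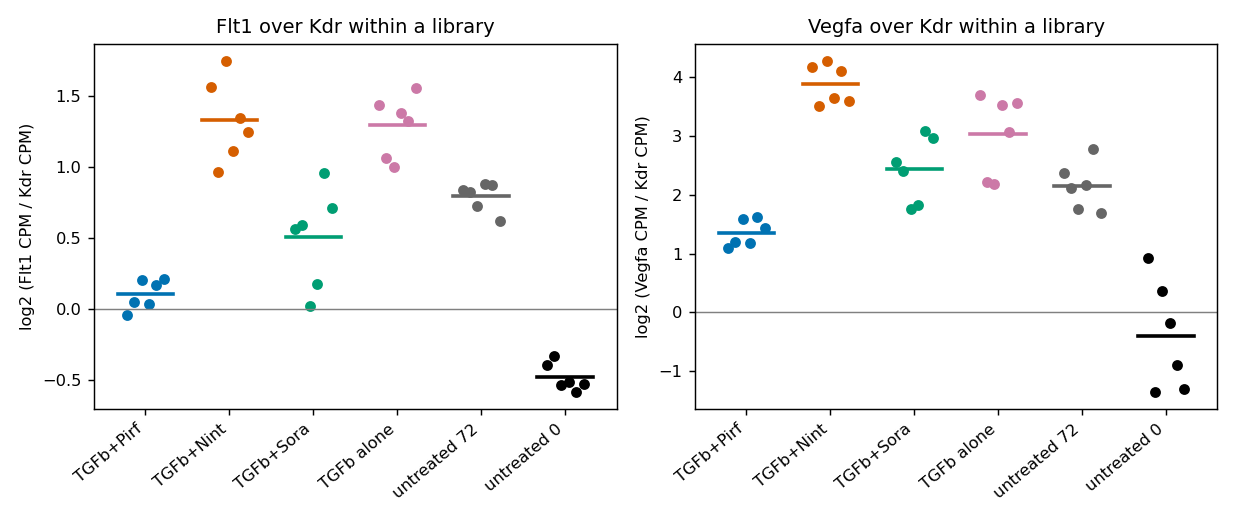
Log2 ratio (vertical axis) of Flt1 to Kdr and of Vegfa to Kdr CPM in each library, by group (horizontal axis); points are libraries and lines group means. In the left panel the Pirf mean lies near 0, at 0.11 on the log2 axis (a ratio of 1.08). The Nint and TGFb-alone means lie together at 1.33 and 1.29 (ratios of 2.51 and 2.45). In the right panel the Nint mean is highest, at 3.88 (a ratio of 14.7), and the Nint libraries overlap those with TGFb alone.

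Inside the groups Kdr and Vegfa ran in opposite directions. Over the 36 libraries, as deviations of log2 CPM from the group mean, Pearson's r was -0.67 between them. With TGFb alone, replicates 2 and 3 had the most Kdr (149 and 147 CPM) and the least Vegfa (689 and 670 CPM), while replicates 1, 4 and 6 had the least Kdr and 1022 to 1077 CPM of Vegfa. At time 0, replicate 1 had the most Vegfa (935 CPM) with 494 CPM of Kdr, and replicate 2 the least Vegfa (262 CPM) with 669 CPM of Kdr. In the same libraries the log2 TMM factor had an r of 0.46 with Kdr, 0.64 with Pdgfrb and -0.54 with Vegfa, against -0.07 with Flt1 and -0.03 with Fgfr1. The points share their libraries, their scaling and their group means, and the part of the TMM factor in these relations was not tested. Other pairs with an r above 0.5 inside the groups were Vegfa and Fgfr1 (0.61) and Kdr and Flt1 (0.56).

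**Figure D4:**
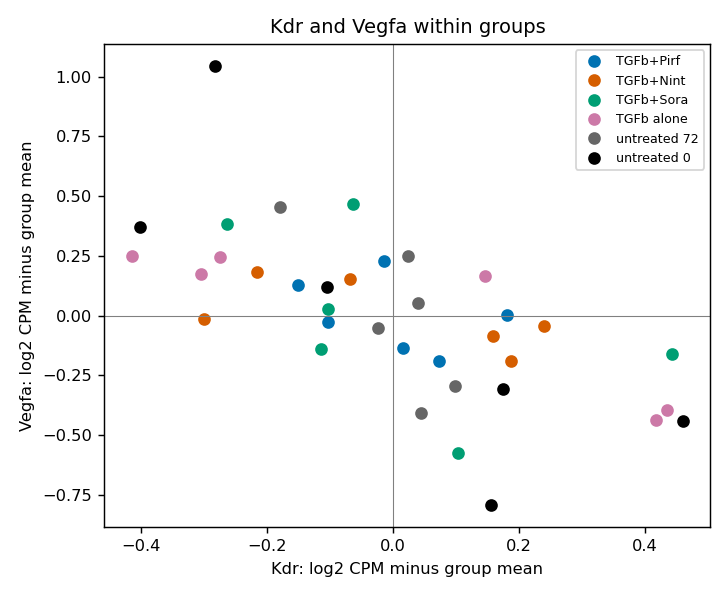
Deviation of Vegfa (vertical axis) against that of Kdr (horizontal axis), each as log2 CPM minus the group mean, in 36 libraries coloured by group. Libraries with more Kdr than their group mean tend to hold less Vegfa, with r of -0.67.

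The genes whose pattern was most like each of the 5 were sought by Pearson's r of log2 CPM over the 30 libraries at 72, among 12664 candidates with a mean normalized count of at least 50. Their IDs are not paired with names in the files, so the first of each is given by ID. They were picked as the highest of the candidates on these same libraries, so their levels are a description with no test. ENSRNOG00000005271 was most like Kdr, with r of 0.98 over the 30 libraries, 0.94 over all 36 and 0.92 for deviations inside the groups at 72. It averaged 155 ± 13.4 CPM with Pirf, 79.1 ± 7.58 CPM with Nint, 101 ± 14.5 CPM with Sora, 114 ± 23.6 CPM with TGFb alone, 140.5 ± 15.3 CPM in untreated slices at 72 and 277 ± 125 CPM at 0 (SD, n = 6), the same order of means as Kdr over a smaller range. ENSRNOG00000004720 was most like Flt1, with r of 0.93, 0.95 and 0.55 in the same order. It averaged 17.9 CPM with Pirf, 9.31 CPM with Nint, 8.58 CPM with Sora, 20.3 CPM with TGFb alone, 26.9 CPM in untreated slices at 72 and 41.3 CPM at 0, so its mean with TGFb alone lay below the untreated mean, where those of Flt1 were close. ENSRNOG00000005678 was most like Pdgfrb, with r of 0.96, 0.83 and 0.91, and averaged 348 CPM with TGFb alone and 158 CPM in untreated slices at 72. Its mean at 0 was 123 CPM, below its untreated mean at 72, whereas the Pdgfrb mean was higher at 0 than in untreated slices at 72. ENSRNOG00000050655 was most like Vegfa, with r of 0.96, 0.71 and 0.94, and averaged 343 CPM with Pirf, 476 CPM with Nint, 336.5 CPM with Sora and 530.1 CPM with TGFb alone. In untreated slices it averaged 403 CPM at 72 and 87.3 CPM at 0, a wider gap than that of the Vegfa means (720.5 and 496 CPM). ENSRNOG00000008246 was most like Fgfr1, with r of 0.91 over the 30 libraries at 72 and 0.54 inside the groups, but -0.34 over all 36. It averaged 271 CPM in untreated slices at 72 and 60.7 CPM at 0, where Fgfr1 was lower at 72. The genes ranked next had r of 0.90 to 0.96 over the 30 libraries at 72. Over all 36 their r was -0.17 for Kdr, -0.13 for Flt1, 0.855 for Pdgfrb, 0.27 for Fgfr1 and 0.81 for Vegfa. Likeness at 72 thus did not always hold with time 0 included. The libraries behind these r values share groups and scaling.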

How the data were processed

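RNA was sequenced from rat lung slices. A 96-well kit was used for RNA extraction, and stranded libraries were made from RNA depleted of ribosomal RNA, per the labels' protocols. RSEM, edgeR and the build Rnor_6.0 stand in the submitters' processing notes; aligner, annotation release and strand setting: not given in the sources used here. One deposited table gives RSEM expected counts, unscaled for depth or length, and the other the authors' log2 CPM values for 14984 genes described as expressed and protein coding, which hold all 5 genes and served as an alternative.

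After rounding of the expected counts, edgeR 4.0.16 (R 4.3.3) filtered genes with filterByExpr, scaled libraries with TMM and fitted the 36 libraries together with a mean per group (glmQLFit, glmQLFTest). The procedure was tested on simulated counts of independent libraries with the same dispersion for every gene, a simpler setting than these data. The SE was taken as |log2 fold change| over the root of F. Log2 CPM used a prior count of 2. The rule for the 5 genes uses no measured value, but the genes, lists and tests were proposed with earlier results of these data known; the 5 are always named, and the likest genes follow a fixed rule. The 108 symbols of further pathway and marker lists could not be looked up, so those lists gave no result. Alternatives were DESeq2 1.42.0, limma 3.58.1, other scalings, no filter, fewer libraries, a fold of 1.2, a replicate block, each library left out and, added after the data were seen, the TMM factor as a covariate. No 2 libraries of a group agreed within sampling noise.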

Additional observations from a re-analysis of the deposited data

Results flagged for a closer look

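In 2 of the 30 groups of 6 values (5 genes in 6 groups) 1 library stood apart from the rest by a gap that was large beside the range of its group, where chance gives about 1 in 20 groups. Pdgfrb stood at 100.6 CPM in Sora replicate 5, while the other 5 Sora libraries held 145 to 154 CPM. Pdgfrb stood at 127 CPM in Pirf replicate 3, while the other 5 Pirf libraries held 174 to 200.2 CPM.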

How the results depend on the processing

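Of 55 results (5 genes in 11 comparisons), 26 kept their direction and their side of the threshold under every alternative, and these include Kdr and Flt1 with Nint and Flt1 with Sora against TGFb alone; over 1210 recomputed values 40 lost a call, 19 gained one and 14 changed sign. Values below are log2 fold changes, and the causes were not tested. Against a fold of 1.2, which leaves fold changes as they are, 13 calls were lost: Vegfa in culture (0.54), Kdr with TGFb (-0.49), Flt1 with Pirf against TGFb alone (-0.37) and untreated slices (-0.39), Vegfa with Pirf against untreated slices (-0.52), Fgfr1 with Nint against untreated slices (0.41), Pdgfrb (-0.47) and Fgfr1 (-0.36) with Sora against TGFb alone, Pdgfrb with Sora against untreated slices (0.51), Fgfr1 for Sora and Pirf (-0.43), and Kdr (0.62), Fgfr1 (-0.31) and Vegfa (-0.80) for Sora and Nint. Without scaling factors the calls of Flt1 (-0.22) with Pirf and Pdgfrb (-0.37) with Sora against TGFb alone, Fgfr1 for Sora and Nint (-0.22) and Vegfa with Pirf against untreated slices (-0.43) were lost. Fgfr1 with Pirf against TGFb alone (0.22), Pdgfrb (-0.37) and Fgfr1 (-0.27) for Nint and Pirf, and Kdr with Pirf against untreated slices (0.38) were gained, and Vegfa for Sora and Pirf (-0.05) and Pdgfrb for Sora and Nint (0.013) changed sign. With the TMM factor as a covariate, calls were lost for Flt1 (-0.34) and Vegfa (-0.29) with Pirf and Vegfa with Sora (-0.50) against TGFb alone, Vegfa for Nint and Pirf (0.26), Kdr (0.42), Fgfr1 (-0.30) and Vegfa (-0.47) for Sora and Nint, and Vegfa with Pirf against untreated slices (-0.18). They were gained for Pdgfrb in culture (-0.42), Pdgfrb with Pirf (-0.56) and Nint (-0.40) and Kdr with Sora (-0.49) against TGFb alone, and Pdgfrb for Nint and Pirf (0.16) and Vegfa for Sora and Pirf (-0.21) changed sign. In a fit of only the 12 libraries compared, Vegfa in culture was lost (0.53) and Pdgfrb for Sora and Pirf (-0.30) and Kdr with Pirf against untreated slices (0.30) were gained. DESeq2 gained Pdgfrb for Sora and Pirf (-0.31) and Vegfa with Sora against untreated slices (-0.52). Vegfa for Sora and Pirf also changed sign with limma-voom (-0.019) and with the deposited log2 CPM (-0.024). RLE size factors and no filter on low counts changed no call of these results. Leaving out 1 library changed calls or signs for Fgfr1 for Sora and Nint (-0.34 to -0.29), Flt1 with TGFb (-0.061 to 0.031), Pdgfrb with Nint (-0.46 to -0.30), for Sora and Pirf (-0.38 to -0.23) and in culture (-0.32 to -0.14), and Vegfa in culture (0.41 to 0.82), with Pirf (-0.60 to -0.42) and Sora (-0.61 to -0.41) against untreated slices, and for Sora and Pirf (-0.089 to 0.11).

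The labels do not state whether same-numbered libraries of different groups are paired. Of 90 pairs of same-numbered libraries, 22 correlated over 0.1 (-0.31 to 0.56), and 12 of 36 libraries correlated best with their own number. No share expected by chance was computed, so these values do not decide whether the groups are paired. With the replicate number as a block, Pdgfrb for Sora and Pirf passed (-0.32), Vegfa for Sora and Pirf changed sign (-0.003), and no other call changed.

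Counts over all genes moved more. Against a fold of 1.2, 1779 in place of 4130 genes were called with TGFb, 4099 of 8061 with Pirf, 99 of 483 with Nint and 410 of 2406 with Sora against TGFb alone, 4602 of 8544 for Nint and Pirf, 2520 of 6592 for Sora and Pirf and 186 of 1720 for Sora and Nint. With the TMM factor as a covariate the numbers were 781 with Nint, 1469 with Sora and 455 for Sora and Nint, and Sora had 1423 in a fit of its 12 libraries. Nint had 309 without TGFb-alone replicate 2 and 299 without replicate 3. For Sora and Nint 1133 were called without a filter, 942 to 996 without Sora replicate 1, 2, 3 or 4, 2819 without Sora replicate 5 and 1057 to 1111 without Nint replicate 1, 3 or 5. Without scaling factors the share of calls that were higher was 69.7% in place of 48.7% with Pirf, 76.1% in place of 45.6% with Sora and 34.9% in place of 53% with TGFb, and the median of all genes shifted by 0.15 with Pirf and 0.10 with Sora. The 1132 or more counts behind each value leave the spread between libraries as the limit.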
